A study of Mus musculus with 2 samples.

Results

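Rods and cones, the light-sensing cells of the retina, were followed through 40 of their transcripts in RNA of the retinal pigment epithelium (RPE) and choroid, a tissue from which the retina is meant to be absent. The 40 genes were taken by name from the 23420 gene rows of the count table, and all 40 were found. They encode visual pigments, transducins, phosphodiesterases, channels and their regulators, outer segment proteins and photoreceptor transcription factors. They were taken to mark any retina that remained on the dissected tissue. Unc119 is expressed in many tissues and the Abca4 transcript is also known from mouse RPE, so their counts need not all come from retina. Of the 40, 10 are known mainly from rods, 9 from cones, and 21 from both or are not assigned to either here.

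The study compared 3 mice labelled AhR -/- (strain B6.129-AhRtm1Bra/J) with 3 mice labelled AhR +/+ (strain C57BL6/J). All were untreated and 11 to 13 months old. The targeted gene, Ahr, encodes a ligand-activated transcription factor, and its allele is carried in the germline, not driven in 1 cell type. Each library holds RNA pooled from 2 eyes. The RPE and choroid were what remained of each eye once its front part and the retina had been taken off, and polyadenylated RNA was sequenced. The labels do not say that same-numbered animals of the groups belong together.

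The depth, as the total of all gene counts, was 18058725 to 28692624. CPM is counts per 1e6 counts of the library, scaled by the library's TMM factor, and all CPM values below are in the order of animals 1, 2 and 3 of each group. Ahr itself stood at 41.4, 45.4 and 40.6 CPM in the knockout-labelled libraries and at 19.7, 20.2 and 26.0 CPM in the wild type. A count over the whole gene does not check the allele, and the direction goes against a loss of transcript, so the libraries are called knockout-labelled and every direction rests on those labels. RPE markers set the tissue: Ttr, encoding transthyretin, stood at 20680.2, 13464 and 13968 CPM in the knockout-labelled libraries and 15530.0, 22341 and 19984 CPM in the wild type. Rgr, encoding a retinal-binding opsin of the RPE, stood at 8377, 3721 and 4783 CPM in the knockout-labelled libraries and 6724, 9264 and 7362 CPM in the wild type. All 12 RPE markers passed the filter on low counts, so RPE was present in these libraries. All 10 markers listed for choroidal endothelium passed it too, which does not tell choroidal from other endothelium. Corneal keratin Krt12 was also counted, at 206, 4103 and 2903 CPM in the knockout-labelled libraries and 804, 511 and 302 CPM in the wild type.

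In the dark, cyclic GMP holds channels in the outer segment membrane open. Light turns the visual pigment on, which activates transducin, and transducin lifts the inhibition of phosphodiesterase 6, so that cyclic GMP is broken down and the channels close. Arrestins, pigment kinases and calcium-binding regulators end the response, and guanylate cyclases restore cyclic GMP. Rods and cones use paired sets of these proteins, and both shed outer segment tips that the RPE takes up each day.

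Photoreceptor transcripts were plentiful in every library. The 40 genes together took 1.58%, 1.39% and 1.46% of all gene counts in knockout-labelled animals 1, 2 and 3, and 1.10%, 1.19% and 2.18% in wild-type animals 1, 2 and 3. The wild-type library of animal 3 thus stood highest, those of animals 1 and 2 lowest, and the 3 knockout-labelled libraries lay between. Summed levels were 14805 ± 1213 CPM in the knockout-labelled and 14908 ± 5855 CPM in the wild-type group (SD, n = 3 each). In bulk tissue, fewer cells of a type and less RNA per cell cannot be told apart. Of the 40 genes, 26 had a mean of at least 100 CPM, and all 40 passed the filter on low counts.

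**Figure D1:**
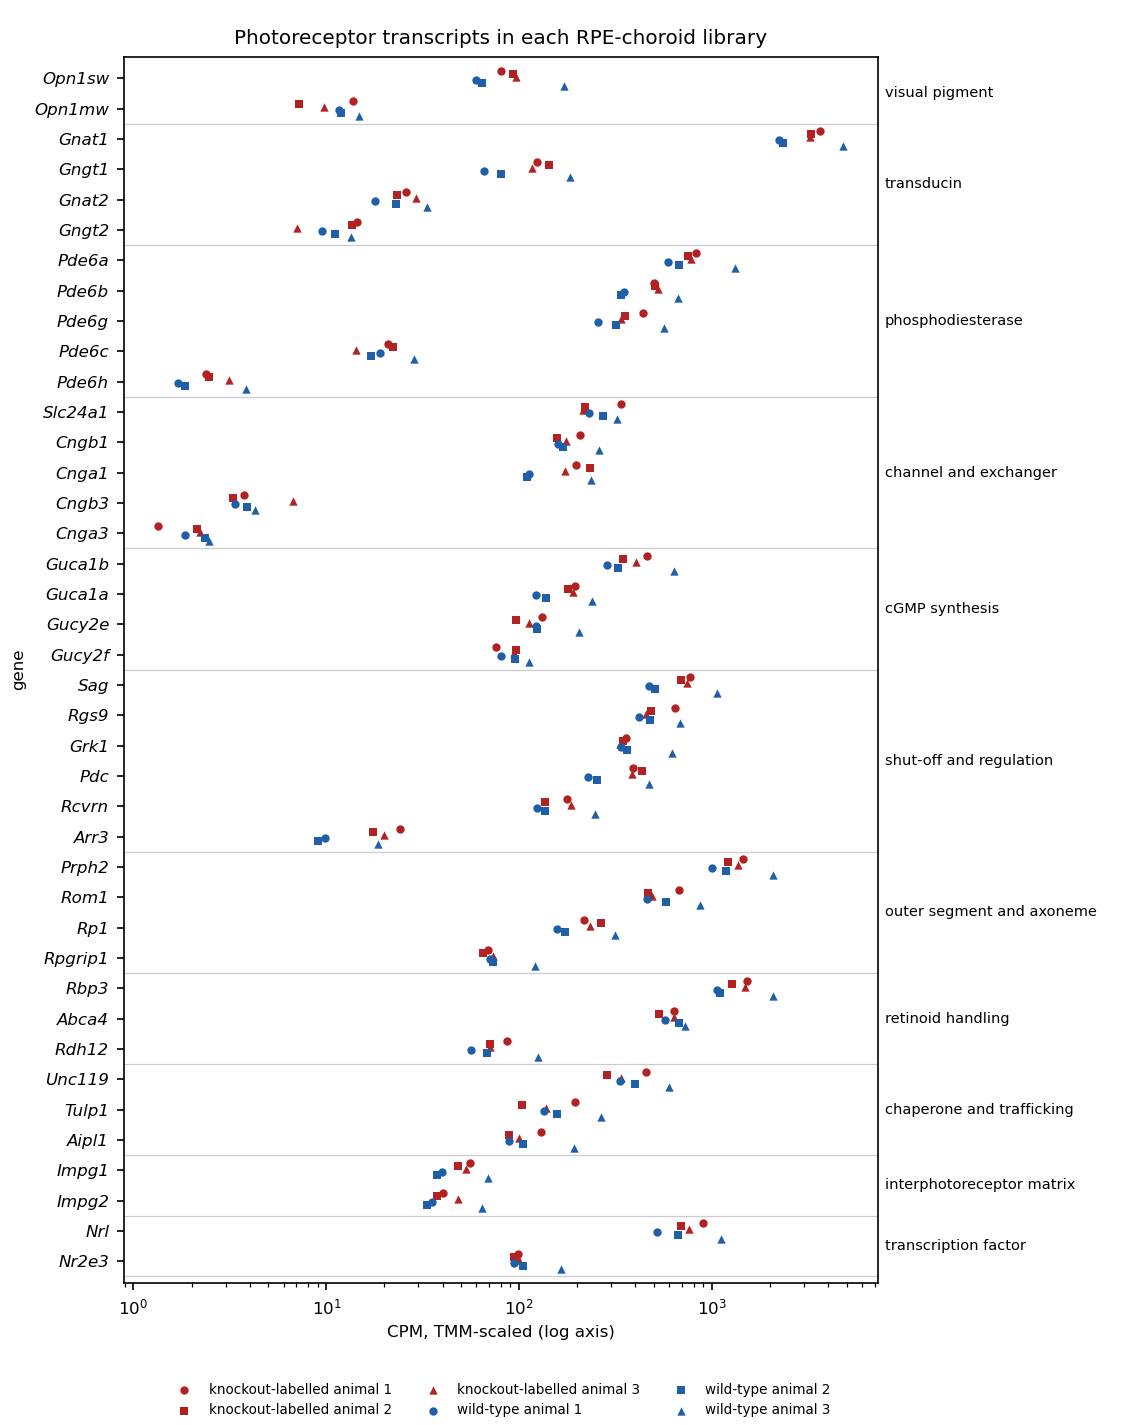
Level of each of the 40 photoreceptor genes in each library, as TMM-scaled CPM on a log axis, with genes grouped by role; red symbols are knockout-labelled and blue symbols wild-type animals 1 (circle), 2 (square) and 3 (triangle). Wild-type animal 3 has the highest level for 36 of the 40 genes.

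Per kilobase of annotated exon, the mean level over the 6 libraries ran from 0.432 to 1389 CPM per kb. Gnat1, which encodes the alpha subunit of rod transducin (chromosome 9, 107674474 to 107679712, minus strand in GRCm38), was highest, ahead of Prph2 at 517, Pde6g at 419, Sag at 407 and Rom1 at 388 CPM per kb. The highest cone gene per length was the short-wave opsin gene Opn1sw at 39.0 CPM per kb, which placed 25th of the 40. The other 8 cone genes lay at rank 31 or lower, with Gnat2 at 12.3, Arr3 at 12.1 and Opn1mw at 9.25 CPM per kb, and Cngb3, Cnga3 and Pde6h last. The order uses exon lengths of the GENCODE M21 basic set, so a gene with a long alternative exon, such as Pde6h with 5940 exon bases, ranks lower than its main transcript would.

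The sequence just upstream of the start sites of these genes was read from RefSeq (GRCm38.p6), where 31 of the 40 symbols had a window. Crx, the homeodomain factor of photoreceptors, is known to bind TAATCC, and Nrl, the leucine zipper factor of rods, binds sites with the core TGCTGA. Each motif was sought as an exact match on both strands in the 250 bases before the start, and the letters of the motifs do not contain each other. TAATCC was present for 13 of the 31 genes (41.9%, Wilson 95% interval 26.4% to 59.2%), against 7.21% of 27025 genes with a window. TGCTGA was present for 9 of the 31 (29.0%, 16.1% to 46.6%), against 18.0% of all genes. A gene with several windows counts where any of them holds the motif. Both motifs stood in the same window for 4 of the 31, against 1.12% of all genes. The intervals cover counting error only, and a match is a description of these letters, not a bound site.

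Windows were taken for the 2 genes with the highest mean CPM of each class (rod, cone, both or not assigned). The choice was among the 18 genes with only 1 window whose 250 upstream bases touch no annotated exon. Sag (rod arrestin) and Rbp3 (the interphotoreceptor retinoid-binding protein) hold both motifs, and Opn1sw (a cone pigment) and Rgs9 (which ends transducin signalling) hold TGCTGA alone. Arr3 and Nrl, chosen by the same rule, hold no match in this window. The windows lie at chr1:87803430-87803679, plus strand for Sag, chr14:33953753-33954002, plus strand for Rbp3, chr6:29380514-29380763, minus strand for Opn1sw and chr11:109298182-109298431, minus strand for Rgs9, each read 5′ to 3′ on the gene's strand up to the base before the start. The start is that of RefSeq, which can differ from the GENCODE spans given for the genes. The Sag and Rbp3 windows end just before the GENCODE span of their gene. The Opn1sw and Nrl windows lie inside that span, and the Rgs9 window lies a short way outside it. A window at another start could hold other matches. Capitals mark a match to either motif on either strand.
Sag: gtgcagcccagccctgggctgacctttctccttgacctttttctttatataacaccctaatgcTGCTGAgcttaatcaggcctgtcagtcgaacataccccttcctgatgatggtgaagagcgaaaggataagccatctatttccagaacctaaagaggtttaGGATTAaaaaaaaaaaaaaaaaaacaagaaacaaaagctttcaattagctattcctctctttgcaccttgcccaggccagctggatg
Rbp3: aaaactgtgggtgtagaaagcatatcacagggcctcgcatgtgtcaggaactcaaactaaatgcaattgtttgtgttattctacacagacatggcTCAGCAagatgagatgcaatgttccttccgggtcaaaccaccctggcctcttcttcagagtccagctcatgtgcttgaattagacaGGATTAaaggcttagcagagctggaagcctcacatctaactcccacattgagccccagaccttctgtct
Opn1sw: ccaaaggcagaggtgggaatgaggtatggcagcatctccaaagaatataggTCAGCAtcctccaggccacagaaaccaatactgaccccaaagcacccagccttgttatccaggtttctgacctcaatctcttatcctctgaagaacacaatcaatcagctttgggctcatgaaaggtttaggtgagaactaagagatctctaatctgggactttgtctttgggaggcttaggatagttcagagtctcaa
Rgs9: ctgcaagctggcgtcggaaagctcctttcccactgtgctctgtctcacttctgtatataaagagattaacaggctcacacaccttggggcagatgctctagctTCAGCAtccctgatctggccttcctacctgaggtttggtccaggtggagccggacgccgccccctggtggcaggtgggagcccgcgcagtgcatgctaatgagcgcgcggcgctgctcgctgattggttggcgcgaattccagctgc

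The TAATCC match of Sag begins 87 bases before the start and that of Rbp3 69 bases before it, both as the reverse complement. TGCTGA begins 187 bases before the start of Sag as written and, as the reverse complement, 155 before that of Rbp3, 199 before that of Opn1sw and 147 before that of Rgs9. The ratio of wild-type animal 3 to the mean of wild-type animals 1 and 2 was 2.17 for Sag, 1.92 for Rbp3, 2.73 for Opn1sw and 1.51 for Rgs9, and 1.95 for Arr3 and 1.90 for Nrl, which hold neither motif in the window. A link between the motifs and the differences between libraries was not tested.

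None of the photoreceptor genes passed edgeR's quasi-likelihood test between the genotypes. Of the 40 genes, 0 were called at an adjusted p under 0.05, against 0.0506% of the 15796 genes tested. At an unadjusted p under 0.05 the test held 1 of the 40, Arr3, against 14.2% of all genes tested. DESeq2 also called 0 of the 40, against 3.25% of the genes to which it gave an adjusted p, and the edgeR exact test 0 of the 40, against 2.26% of all genes. Log2 fold changes, knockout-labelled over wild type, ran from -0.41 (Gucy2e) to 0.72 (Arr3), with a median of -0.06 beside 0.01 over all genes tested, and 16 lay above 0 and 24 below. Standard errors ran from 0.15 to 0.51, and the adjusted p-values from 0.315 to 0.996. The groups overlapped for all 40 genes. Of all genes tested, 20.0% had groups that lay apart, 9.96% with the knockout-labelled libraries lower and the rest with them higher.

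The library of 1 wild-type animal stood apart. Wild-type animal 3 was above both other wild-type animals for all 40 genes, which held for 35.1% of all genes tested. It was the highest of all 6 libraries for 36 of the 40, against 16.8% of all genes tested. It reached at least 1.5 times the mean of wild-type animals 1 and 2 for 33 of the 40, against 8.85% of all genes tested. Over the 40 genes that ratio had a median of 1.86 and ran from 1.17 (Cnga3) to 2.73 (Opn1sw). Wild-type animals 1 and 2 lay close to each other, with a ratio of animal 2 to animal 1 between 0.89 and 1.29. The highest and lowest knockout-labelled libraries differed by a median factor of 1.29, and the coefficient of variation was larger in the wild type for 35 of the 40 genes, with medians of 38.7% in the wild type and 13.2% in the knockout-labelled group.

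**Figure D2:**
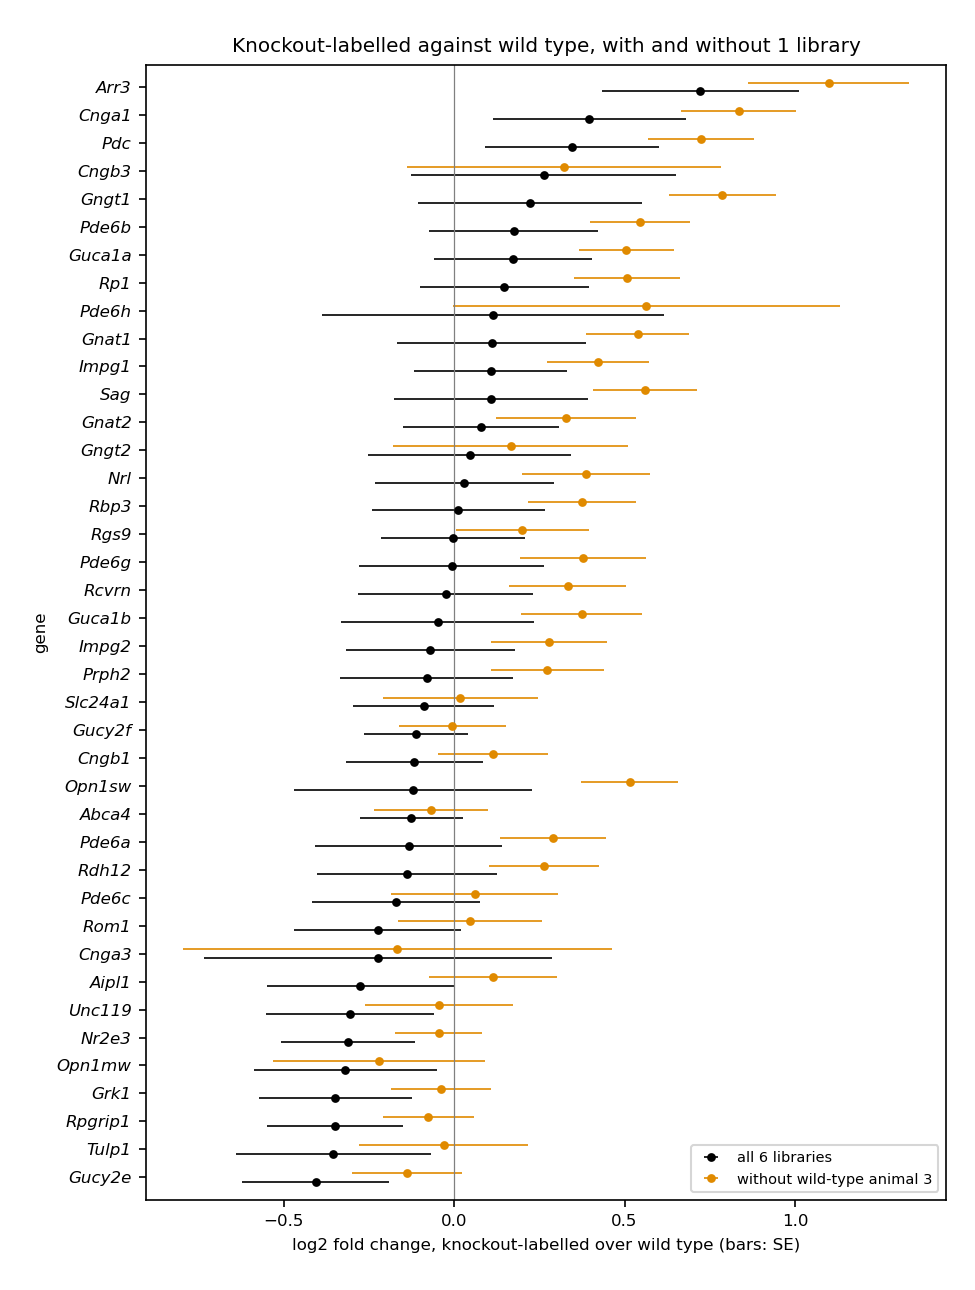
Log2 fold change of each of the 40 genes, knockout-labelled over wild type, with its SE (bars), fitted on all 6 libraries (black) and without wild-type animal 3 (orange). On all 6 libraries 16 genes lie above 0, and without wild-type animal 3 there are 30. Wild-type animal 3 was the highest wild-type library for all 40 genes, so leaving it out raises their values by construction.

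Without wild-type animal 3, 30 of the 40 genes had a log2 fold change above 0, with a median of 0.28 beside -0.00099 over all genes tested. Again 0 were called, as were 0 of all genes tested in that fit (0.00%). At an unadjusted p under 0.05 there were 12 of the 40, against 10.8% of all genes, and each of the 12 was higher in the knockout-labelled libraries. The lowest adjusted p was 0.285, for Cnga1 (log2 fold change 0.83) and Gngt1 (0.79). All 3 knockout-labelled libraries were above wild-type animals 1 and 2 for 21 of the 40 genes, against 15.6% of all genes tested, and below wild-type animal 3 for 36. Wild-type animal 3 was left out here as the highest wild-type library for all 40 genes. Leaving it out raises their fold changes by construction, which is not so for all genes tested. Nothing is therefore read from these counts beside the shares over all genes. The median log2 fold change of the 40 genes was -0.06 on all 6 libraries and 0.0071 without knockout-labelled animal 2. For 14 of the 40 genes no alternative fit turned the sign.

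Of the 40 genes, the cone pigment gene Opn1sw had the widest spread among the wild-type libraries. Opn1sw (chromosome 6, 29376671 to 29388468, minus strand), the short-wave opsin gene, stood at 80.8, 93.2 and 96.4 CPM in the knockout-labelled libraries and 59.8, 64.4 and 169.7 CPM in the wild type. Opn1mw (chromosome X, 74127464 to 74150760, plus strand), the middle-wave opsin gene, stood at 13.7, 7.24 and 9.71 CPM in the knockout-labelled libraries and 11.7, 11.9 and 14.8 CPM in the wild type. Wild-type animal 3 had 2.73 times the mean of the other wild-type animals for Opn1sw and 1.26 times for Opn1mw. The log2 fold change was -0.12 (SE 0.35, adjusted p = 0.911) for Opn1sw and -0.32 (SE 0.27, adjusted p = 0.636) for Opn1mw, and the groups overlapped for both.

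In the mouse retina the opsins are laid out in opposite gradients, with more short-wave opsin in ventral and more middle-wave opsin in dorsal cones. The count of Opn1sw over that of Opn1mw was 5.88, 12.9 and 9.93 in knockout-labelled animals 1, 2 and 3 and 5.13, 5.43 and 11.4 in wild-type animals 1, 2 and 3. The first animal of the knockout-labelled group and wild-type animals 1 and 2 thus lay between 5.13 and 5.88, and the other libraries between 9.93 and 12.9, so the ratio differed within both groups. The ratio was chosen after its values were seen, and no test result is read from it. Opn1mw rested on between 132 and 429 counts per library.

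Transducins relay the signal from the pigment, and the rod forms were abundant. Gnat1 stood at 3627, 3242 and 3199.7 CPM in the knockout-labelled libraries and 2228, 2322 and 4778 CPM in the wild type. Gngt1 (chromosome 6, 3993792 to 3997436, plus strand), the gamma subunit of rod transducin, stood at 124, 142 and 117 CPM in the knockout-labelled libraries and 65.6, 80.2 and 182 CPM in the wild type. For both, the 3 knockout-labelled libraries lay above wild-type animals 1 and 2 and below wild-type animal 3. The cone alpha subunit gene Gnat2 (chromosome 3, 108092789 to 108101432, plus strand) stood at 25.7, 23.2 and 29.2 CPM in the knockout-labelled libraries and 17.9, 22.9 and 33.2 CPM in the wild type. Gngt2, the cone gamma subunit gene, stood at 14.5, 13.6 and 7.05 CPM in the knockout-labelled libraries and 9.51, 11.0 and 13.4 CPM in the wild type, with knockout-labelled animal 3 the lowest of all. The exons of Gngt2 share 137 bases with those of Abi3, so its count is uncertain. Log2 fold changes of the transducin genes ran from 0.05 (Gngt2) to 0.22 (Gngt1), and their lowest adjusted p was 0.81.

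Phosphodiesterase 6 breaks down cyclic GMP. Pde6a and Pde6b encode the rod catalytic subunits. Pde6a stood at 827, 745 and 778 CPM in the knockout-labelled libraries and 590.2, 672 and 1315 CPM in the wild type. Pde6b stood at 501, 502 and 521 CPM in the knockout-labelled libraries and 349, 337 and 664 CPM in the wild type. The inhibitory rod subunit gene Pde6g stood at 439, 353 and 337 CPM in the knockout-labelled libraries and 256, 315 and 564 CPM in the wild type. For Pde6b the knockout-labelled libraries were close together, with a coefficient of variation of 2.23%, the smallest of the 40 genes. Pde6c, the cone catalytic subunit gene, stood at 20.9, 22.1 and 14.3 CPM in the knockout-labelled libraries and 19.0, 17.0 and 28.3 CPM in the wild type. Pde6h, the cone inhibitory subunit gene, stood at 2.39, 2.47 and 3.14 CPM in the knockout-labelled libraries and 1.69, 1.86 and 3.84 CPM in the wild type, on 45 to 111 counts per library. Wild-type animal 3 was highest for all 5 of these genes, and their log2 fold changes ran from -0.17 (Pde6c) to 0.18 (Pde6b), with a lowest adjusted p of 0.799.

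Channels and the exchanger carry the current. The rod channel subunit gene Cnga1 (chromosome 5, 72603696 to 72644275, minus strand) stood at 197, 234 and 173 CPM in the knockout-labelled libraries and 113, 109.8 and 236 CPM in the wild type. Its partner Cngb1 stood at 207, 157 and 176 CPM in the knockout-labelled libraries and 159, 168 and 258 CPM in the wild type. Slc24a1, the sodium, calcium and potassium exchanger gene of rods, stood at 338, 219.7 and 214 CPM in the knockout-labelled libraries and 230.1, 271 and 320.1 CPM in the wild type. Knockout-labelled animal 1 and wild-type animal 3 were high for Slc24a1, and wild-type animal 3 reached only 1.28 times the mean of the other wild-type animals. Cngb3 of the cone channel stood at 3.73, 3.29 and 6.73 CPM in the knockout-labelled libraries and 3.35, 3.88 and 4.25 CPM in the wild type, and its partner Cnga3 lay between 1.34 and 2.45 CPM. On 32 to 71 counts per library Cnga3 had the widest SE of the 40 genes. The log2 fold change was 0.40 (SE 0.28, adjusted p = 0.566) for Cnga1 and -0.12 for Cngb1.

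Enzymes that make cyclic GMP, and their calcium sensors, showed the same high library. The guanylate cyclase gene Gucy2e (chromosome 11, 69218117 to 69237036, minus strand) stood at 132, 95.9 and 113 CPM in the knockout-labelled libraries and 123, 123 and 205 CPM in the wild type. Gucy2f, the other cyclase gene, stood at 76.0, 96.2 and 93.5 CPM in the knockout-labelled libraries and 80.6, 94.5 and 112 CPM in the wild type, with little lift in wild-type animal 3 (1.28 times). Guca1a, encoding a cyclase-activating protein, stood at 195, 179 and 189.7 CPM in the knockout-labelled libraries and 123, 138 and 239.5 CPM in the wild type. The neighbouring gene Guca1b of the same family stood at 459, 344 and 404 CPM in the knockout-labelled libraries and 285, 327 and 636 CPM in the wild type. Gucy2e had the lowest log2 fold change of the 40 genes, -0.41 (SE 0.22, adjusted p = 0.432), and knockout-labelled animal 1 lay above wild-type animals 1 and 2, so the groups overlapped.

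Genes that end or tune the response were also abundant. Sag (chromosome 1, 87803680 to 87845158, plus strand), rod arrestin, stood at 766, 686 and 739.9 CPM in the knockout-labelled libraries and 471, 505 and 1059 CPM in the wild type. Rgs9, which speeds transducin shut-off, stood at 639, 479 and 453 CPM in the knockout-labelled libraries and 419, 479 and 677 CPM in the wild type. Grk1, the kinase of the light-activated pigment, stood at 359, 345 and 331 CPM in the knockout-labelled libraries and 336, 363 and 620.1 CPM in the wild type. Wild-type animal 3 stood apart for Grk1, with the other 5 libraries between 331 and 363 CPM. Pdc, encoding phosducin, a binding partner of the transducin beta and gamma subunits, stood at 388, 434 and 384 CPM in the knockout-labelled libraries and 227, 252 and 469 CPM in the wild type. Rcvrn, encoding recoverin, lay between 124 and 247 CPM.

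Arr3 (chromosome X, 100605497 to 100618493, plus strand), cone arrestin, was singled out after its values were seen. It stood at 24.2, 17.4 and 19.9 CPM in the knockout-labelled libraries and 9.81, 9.05 and 18.4 CPM in the wild type. Knockout-labelled animals 1 and 3 were above every wild-type library, and knockout-labelled animal 2 was below wild-type animal 3 and above the others. Group means were 20.5 ± 3.44 and 12.4 ± 5.20 CPM (SD, n = 3 each), and the log2 fold change was 0.72 (SE 0.29, adjusted p = 0.315). The authors' deposited table gives a log2 fold change of 0.71 and an FDR of 0.269 for it, with the sign turned to knockout over wild type. In the authors' deposited table none of the 40 genes had an FDR under 0.05, against 2.37% of its genes.

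Outer segment and axoneme genes followed. Prph2 (chromosome 17, 46910459 to 46924933, plus strand), the peripherin of disc rims, stood at 1447, 1214 and 1355 CPM in the knockout-labelled libraries and 999.6, 1181 and 2066 CPM in the wild type. Rom1, its disc rim partner, stood at 676, 464 and 488 CPM in the knockout-labelled libraries and 459, 576 and 866 CPM in the wild type. Rp1, encoding a protein of the outer segment axoneme, stood at 217, 265 and 231 CPM in the knockout-labelled libraries and 157, 173 and 314 CPM in the wild type. Rpgrip1, of the connecting cilium, stood at 68.4, 65.2 and 72.9 CPM in the knockout-labelled libraries and 70.2, 72.8 and 120.1 CPM in the wild type, with 5 libraries close together and wild-type animal 3 apart. Its exons share 926 bases with those of Supt16, so its count is uncertain. Knockout-labelled animal 1 was the highest of the other 5 libraries for Prph2 and Rom1, and knockout-labelled animal 2 for Rp1.

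Retinoid handling genes differed in how far wild-type animal 3 stood apart. Rbp3 (chromosome 14, 33954003 to 33964216, plus strand), which encodes the carrier of retinoids between photoreceptors and RPE, stood at 1521, 1272 and 1477 CPM in the knockout-labelled libraries and 1059, 1102 and 2072 CPM in the wild type. Rdh12, a photoreceptor retinol dehydrogenase gene, stood at 86.1, 70.3 and 70.7 CPM in the knockout-labelled libraries and 56.4, 67.8 and 125 CPM in the wild type. Abca4, the retinoid transporter gene of disc rims, stood at 637, 532 and 632 CPM in the knockout-labelled libraries and 569.6, 670.0 and 725 CPM in the wild type. The ratio of wild-type animal 3 to the mean of the other wild-type animals was 1.92 for Rbp3, 2.02 for Rdh12 and 1.17 for Abca4, whose transcript is also known from mouse RPE. Unc119, a lipid-binding trafficking gene expressed in many tissues, stood at 453, 285 and 337 CPM in the knockout-labelled libraries and 332, 397 and 599.8 CPM in the wild type. Tulp1, which acts in protein transport to the outer segment, stood at 194, 103 and 138 CPM in the knockout-labelled libraries and 134, 157 and 264 CPM in the wild type. Aipl1, a chaperone gene needed for phosphodiesterase 6, stood at 130.2, 88.3 and 99.1 CPM in the knockout-labelled libraries and 88.2, 104 and 192 CPM in the wild type. These trafficking genes had log2 fold changes from -0.35 (Tulp1) to -0.28 (Aipl1), with a lowest adjusted p of 0.616.

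The proteoglycan genes of the matrix around photoreceptors and the transcription factors showed the pattern at lower and higher levels. Impg1 stood at 55.8, 48.0 and 53.1 CPM in the knockout-labelled libraries and 39.6, 37.3 and 68.7 CPM in the wild type. Impg2 stood at 40.2, 37.6 and 48.3 CPM in the knockout-labelled libraries and 35.2, 33.1 and 64.0 CPM in the wild type. In both, wild-type animal 3 was highest and wild-type animals 1 and 2 were lowest. Nrl (chromosome 14, 55518978 to 55524981, minus strand), the factor that sets rod fate, stood at 892, 690.0 and 759 CPM in the knockout-labelled libraries and 514, 662 and 1116 CPM in the wild type. Nr2e3, its target and partner in rods, stood at 98.9, 93.9 and 99.6 CPM in the knockout-labelled libraries and 93.6, 104 and 164 CPM in the wild type, where 5 libraries lay between 93.6 and 104 CPM.

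Photoreceptor genes outside the 40 moved the same way from library to library. Of 40 listed, 38 were found and tested. Wild-type animal 3 was above both other wild-type animals for 38 of 38, and at least 1.5 times their mean for 30. Crx, shown because its motif was sought, stood at 183, 176 and 185 CPM in the knockout-labelled libraries and 139.8, 144 and 263 CPM in the wild type. Gnb1, the beta subunit of rod transducin, stood at 2021, 2243 and 1958 CPM in the knockout-labelled libraries and 1461, 1514 and 2408 CPM in the wild type. Cdhr1, a cadherin of outer segment discs, stood at 479.7, 407 and 399.9 CPM in the knockout-labelled libraries and 373, 428 and 567 CPM in the wild type. For Crx and Gnb1 the knockout-labelled libraries lay between wild-type animal 3 and the other wild-type animals. Of the 38, 0 were called, the median log2 fold change was 0.03, and without wild-type animal 3 it was 0.31 with 36 above 0. That rise also follows from leaving out the library that was highest of the wild type for these genes.

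**Figure D3:**
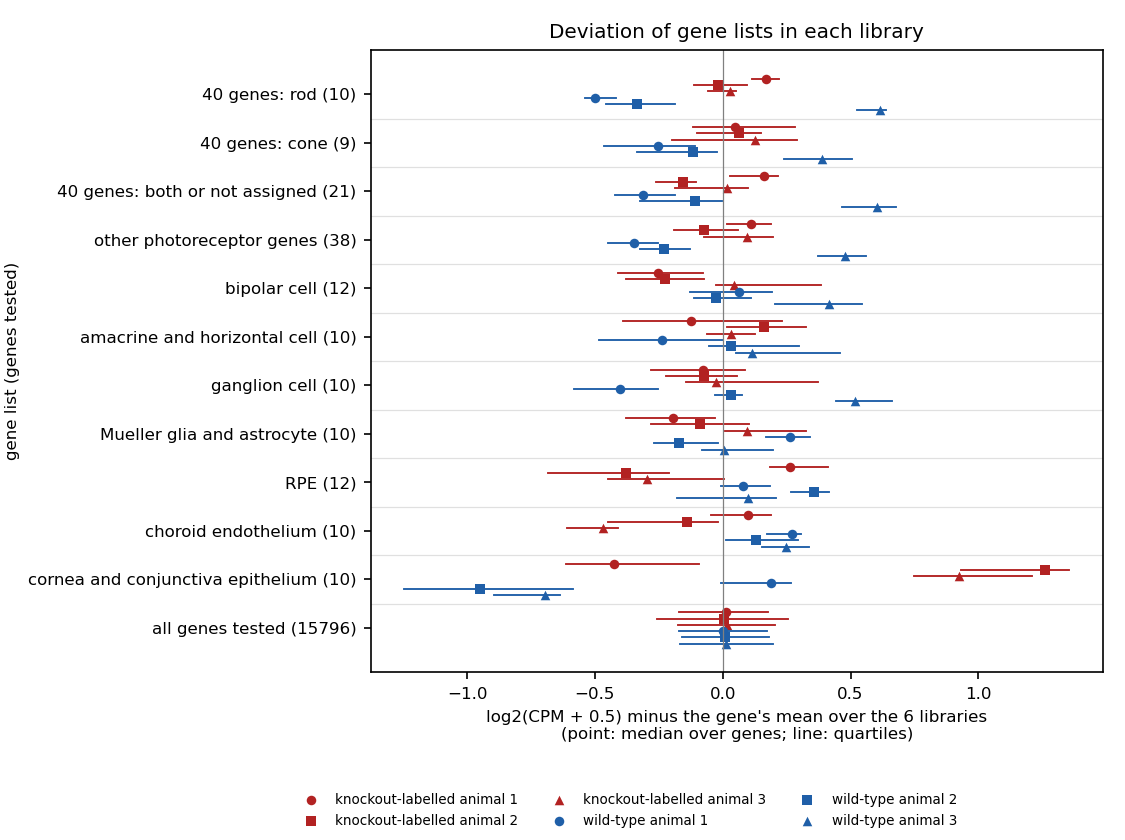
For each gene list, the median (point) and quartiles (line) over its genes of log2(CPM + 0.5) minus the gene's own mean over the 6 libraries; red is knockout-labelled, blue wild type, and the number of genes is given in brackets. Wild-type animal 3 is farthest right for the photoreceptor, bipolar and ganglion cell lists, while RPE, endothelial and cornea markers follow other orders.

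Other retinal cell types were counted at lower summed levels and followed in part. Ganglion cell markers were higher in wild-type animal 3 than in both other wild-type animals for 9 of 10 genes. Bipolar cell markers were so for 9 of 12, and amacrine and horizontal cell markers for 6 of 10. Mueller glia and astrocyte markers were so for 2 of 10, against 35.1% of all genes tested. Summed levels ran from 456 to 672 CPM (bipolar), 517 to 694 CPM (amacrine and horizontal), 253 to 411 CPM (ganglion cell) and 2716 to 3438 CPM (Mueller glia and astrocyte), against 10921 to 21629 CPM for the 40 photoreceptor genes. These sums depend on the genes listed, several of which are known from other tissues too.

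The most abundant genes of these lists show the mix. Nefl, a neurofilament gene of ganglion cell axons, stood at 62.9, 65.0 and 92.7 CPM in the knockout-labelled libraries and 59.6, 80.3 and 114 CPM in the wild type. Rbpms of the same list, which vessels also express, stood at 75.1, 62.9 and 58.8 CPM in the knockout-labelled libraries and 62.2, 61.4 and 60.9 CPM in the wild type. Only the former was higher in wild-type animal 3. Trpm1, a channel gene of bipolar cells that pigment cells also express, stood at 221, 253 and 392 CPM in the knockout-labelled libraries and 327, 308 and 169 CPM in the wild type. Prkca stood at 76.0, 76.1 and 77.8 CPM in the knockout-labelled libraries and 75.0, 72.5 and 93.9 CPM in the wild type. Trpm1 was lowest, and Prkca highest, in wild-type animal 3. Slc6a9 stood at 358, 187 and 228 CPM in the knockout-labelled libraries and 285, 366 and 287 CPM in the wild type. Calb2 stood at 184, 174 and 152 CPM in the knockout-labelled libraries and 87.7, 128 and 221 CPM in the wild type. Calb2 but not Slc6a9 was highest in wild-type animal 3. Glul and Vim, of glia and of other cells, were at 2055 ± 184 and 2105 ± 198 CPM for Glul and at 459 ± 36.8 and 509.9 ± 56.3 CPM for Vim (SD, n = 3 each). In each of these lists 0 genes were called.

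Markers of tissues next to the retina did not share the order. RPE markers were above both other wild-type animals in wild-type animal 3 for 0 of 12 genes, endothelial markers for 4 of 10, cornea and conjunctiva markers for 1 of 10 and lens genes for 0 of 11. The lens crystallin gene Cryaa stood at 9.01, 8.78 and 943 CPM in the knockout-labelled libraries and 196, 678 and 40.6 CPM in the wild type, low in wild-type animal 3, while Cryab, expressed in many tissues, stood at 473, 374 and 503 CPM in the knockout-labelled libraries and 429.7, 537 and 398 CPM in the wild type. Erythroid genes had 2 of 5 tested, Alas2 and Hbb-b1, both higher in wild-type animal 3 than in the other wild-type animals. Alas2 stood at 847, 45.4 and 57.9 CPM in the knockout-labelled libraries and 3.76, 16.2 and 27.4 CPM in the wild type. Hbb-b1 stood at 212, 10.3 and 19.2 CPM in the knockout-labelled libraries and 0.526, 3.88 and 6.29 CPM in the wild type. Cornea markers summed to 3424 to 15024 CPM in the knockout-labelled and 2668 to 5882 CPM in the wild-type libraries, and Krt5 stood at 871, 3073 and 2477 CPM in the knockout-labelled libraries and 1484, 591 and 787 CPM in the wild type. The endothelial genes Plvap and Kdr had log2 fold changes of -0.55 and -0.22. Their part in the photoreceptor values was not tested.

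The sums of rod and cone genes moved together, while single cone genes differed in how far they followed. The summed rod count over the summed cone count was 41.0, 37.1 and 36.6 in knockout-labelled animals 1, 2 and 3 and 36.0, 36.5 and 35.8 in wild-type animals 1, 2 and 3. Wild-type animal 3, high in both, thus lay close to the other wild-type animals in this ratio. Its rod sum was 2.04 times and its cone sum 2.07 times the mean of wild-type animals 1 and 2. The cone sum rests largely on Opn1sw, which held 169.7 of its 288 CPM in wild-type animal 3. Gene by gene, the median log2 ratio of wild-type animal 3 to wild-type animals 1 and 2 was 1.03 over the 10 rod genes and 0.64 over the 9 cone genes. Of the cone genes, Cnga3, Cngb3, Opn1mw and Gngt2 reached only 1.17 to 1.31 times, below every rod gene, while Pde6h reached 2.16 and Opn1sw 2.73 times. Cnga3, Cngb3 and Pde6h rested on only 32 to 71, 60 to 167 and 45 to 111 counts per library. The exons of Gngt2 overlap those of Abi3. The 0.5 added to CPM before log2 also pulls the log2 ratios of the lowest genes toward 0. In CPM the cone sum was 187 ± 2.10 in the knockout-labelled group and 189 ± 86.1 in the wild type (SD, n = 3 each), and the rod sum was 7141 ± 466 and 6817 ± 3056.

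Some ratios within the rod and cone sets are given as values only, because they were picked after the values were seen. An exact two-sided permutation test was run on them. At this group size it cannot give a p under 0.1, so nothing is read from it. Sag over Arr3, rod over cone arrestin, was 31.6, 39.4 and 37.1 in the knockout-labelled libraries and 48.0, 55.8 and 57.5 in the wild type. Cnga1 over Cngb1, the rod channel subunits, was 0.95, 1.49 and 0.99 against 0.71, 0.65 and 0.92. Pde6a over Pde6b was 1.65, 1.48 and 1.49 against 1.69, 1.99 and 1.98. In these ratios, and in the rod over the cone sum, no knockout-labelled value fell among the wild-type values, which their choice can bring about. Gnat1 over Gnat2 was 141, 140.0 and 109.6 against 124.5, 101.3 and 144.0, where the groups overlapped.

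**Figure D4:**
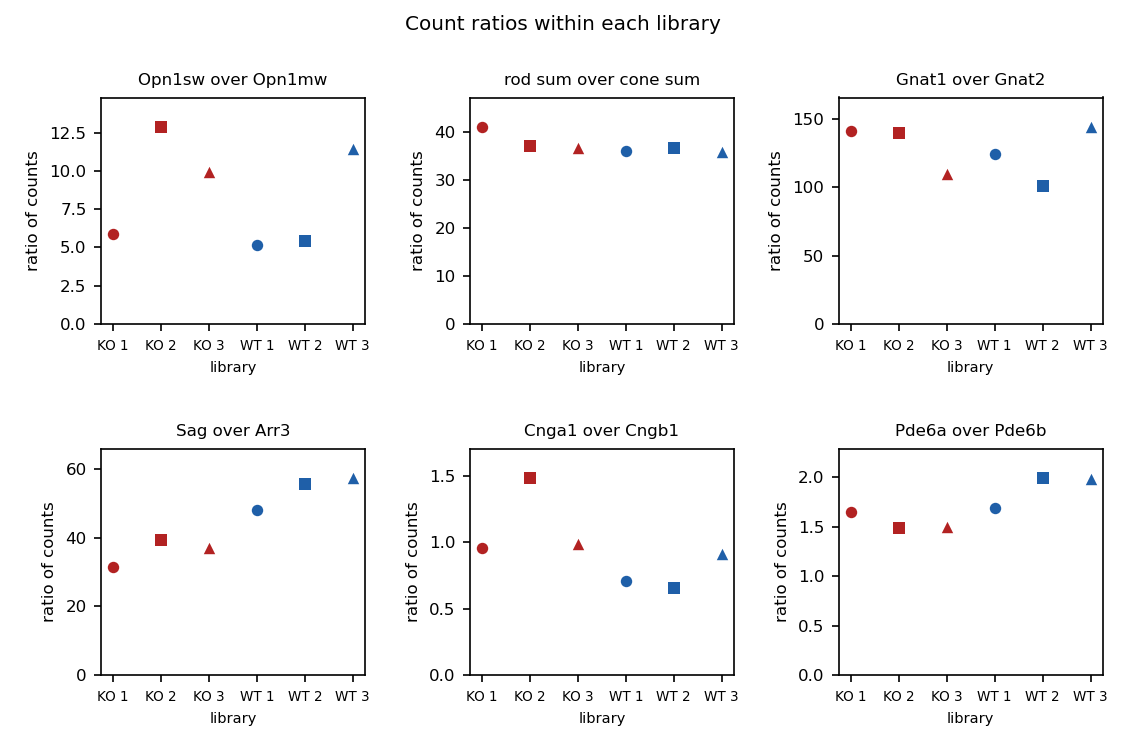
Ratio of counts within each library for 6 pairs of genes or sums; red symbols (KO) are knockout-labelled and blue symbols (WT) wild-type animals 1 to 3, and each vertical axis starts at 0. Rod over cone stays between 35.8 and 41.0, while Opn1sw over Opn1mw runs from 5.13 to 12.9.

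Relative to one another, the 40 genes varied less. When each library was scaled by the median log2 deviation of the 40 genes, the median SD over the 6 libraries fell from 0.37 to 0.18 on the log2 scale. Scaling by the genes' own median tends to narrow their spread by construction, so the fall is a description only. On that scale the groups lay apart for 9 of the 40 genes, 5 higher (Arr3, Cnga1, Pdc, Pde6b and Guca1a) and 4 lower (Gucy2e, Rpgrip1, Grk1 and Nr2e3) in the knockout-labelled libraries. Under the same scaling they lay apart for 4.94% of all genes tested, 2.38% higher and 2.56% lower, and since it is built from the 40 genes, nothing is read from the difference. The 3 largest departures in each direction, as knockout-labelled minus wild-type means, were 0.75 for Arr3, 0.47 for Cnga1 and 0.41 for Pdc, and -0.38 for Gucy2e, -0.35 for Opn1mw and -0.35 for Tulp1.

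The order of the 40 genes moved with base composition. Across the 40 genes, which share libraries and are not independent, Spearman's correlation of the log2 fold change with transcript GC content was -0.40. The 10 genes of lowest GC content (36.7% to 46.8%), with Gngt1, Pdc, Rp1 and Cngb3 among them, had a median log2 fold change of 0.13 with 8 above 0. The 10 of highest GC content (53.9% to 59.7%), with Unc119, Rom1, Guca1b and Rbp3 among them, had a median of -0.06 with 3 above 0. After a correction of each library's trend on GC content over all genes, the medians were 0.02 and 0.02, and the correlation was 0.01. The correction is built to remove such a trend, and the correlation over all genes is not given here. Arr3 was then at 0.69 and Gucy2e at -0.39, and Cnga1 and Pdc went to 0.25 and 0.17. In single libraries, scaled as above, the correlation with GC content was -0.52 and -0.37 in knockout-labelled animals 2 and 3, 0.35 in knockout-labelled animal 1, and 0.17, 0.33 and 0.25 in wild-type animals 1, 2 and 3. After the correction 0 of the 40 genes were called, against 0.0443% of all genes tested.

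**Figure D5:**
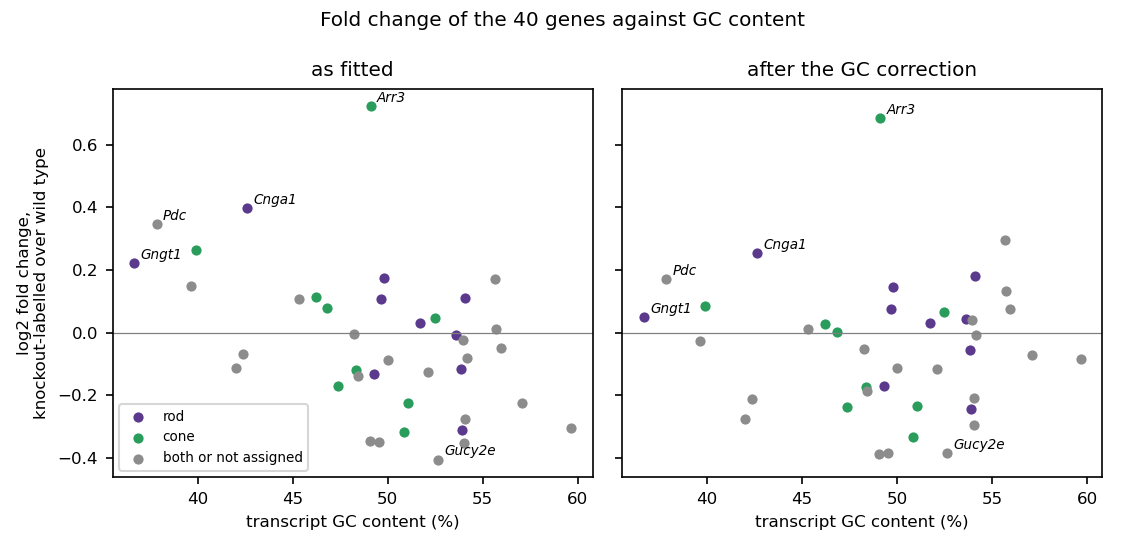
Log2 fold change of the 40 genes, knockout-labelled over wild type, against the GC content of the longest transcript, as fitted (left) and after the GC correction (right); colours mark rod genes, cone genes and genes of both or not assigned. The downward trend on the left (Spearman -0.40), of the kind the correction is built to remove, is absent on the right (0.01), while Arr3 stays highest in both.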

How the data were processed

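Polyadenylated RNA of RPE and choroid was sequenced from 3 animals per group. The authors deposited whole-number counts per gene symbol, made with Bowtie, TopHat and HTSeq on mm10, per the submitters' processing notes; the sources used here give no version, annotation or strand setting, so overlapping genes cannot be told apart by strand. The authors' deposited edgeR table holds log2 fold changes with p-values and FDR, coded wild type over knockout. The 5 tally rows were left out, and no pair of libraries agreed within counting noise.

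Tests on all genes used edgeR 4.0.16 under R 4.3.3 (filterByExpr at minimum count 10 and total 15, TMM, glmQLFit and glmQLFTest, Benjamini-Hochberg over 15796 genes, called under 0.05; checked on simulated data). SE is the absolute log2 fold change over the square root of F. Sums, ratios and deviations, log2(CPM + 0.5), have no model. Alternatives used DESeq2 1.42.0, limma 3.58.1 voom, other factors, other filters and offsets for GC content (lowess span 0.3 on genes above a mean log2 CPM of 2). GC content, exon length and coordinates came from GENCODE M21 (GRCm38), matched by symbol for all 40 genes. Every one of the 40 genes is named, and of other lists the 2 with the highest mean CPM. The genes and lists were chosen with earlier results of these data known. Protein sequences were planned and are not used here. With 3 animals per group, the p-values of these tests weigh each group difference against the spread between these animals. That spread is estimated with information shared over genes.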

Additional observations from a re-analysis of the deposited data

How the results depend on the processing

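Of the 40 photoreceptor genes, 0 were called under any of the 15 alternatives, and the lowest adjusted p of any fit was 0.207, without knockout-labelled animal 1. The count over all genes was 8 and became 15 with upper-quartile factors, 22 with no filter beyond 1 count, 493 with DESeq2, 13 with limma-voom, 357 with the edgeR exact test, 1 with the replicate block and 1 with the replicate block and GC correction, and ran from 0 to 795 when 1 library was left out. The cause was not tested. Same-numbered animals did not deviate together (correlations of -0.15, -0.15 and -0.11 over 15796 genes), so the animal number pairs nothing by the labels or these values, and the replicate block changed no call among the 40 genes. For 26 of the 40 genes some alternative turned the sign of the log2 fold change, and for 14 none did. It turned with no filter beyond 1 count (Rbp3 -0.0032); with limma-voom (Pde6g 0.071, Rcvrn 0.035, Opn1sw 0.043, Gngt2 -0.045, Guca1b 0.037 and Rgs9 0.011). It also turned with the replicate block (Pde6g 0.069, Rcvrn 0.032, Opn1sw 0.054, Gngt2 -0.00012, Guca1b 0.036 and Rgs9 0.0091), with the GC correction (Pde6g 0.045, Rcvrn 0.039, Rp1 -0.028 and Guca1b 0.075) and with the GC correction and the replicate block (Pde6g 0.13, Prph2 0.066, Rcvrn 0.10 and Guca1b 0.17). When 1 library was left out, log2 fold changes that turned ran as follows: Aipl1 -0.49 to 0.11, Cngb1 -0.24 to 0.11, Cngb3 -0.13 to 0.45, Gnat1 -0.083 to 0.54, Gnat2 -0.11 to 0.33, Gngt1 -0.043 to 0.79, Gngt2 -0.14 to 0.31, Guca1a -0.0084 to 0.51, Guca1b -0.26 to 0.37, Impg1 -0.051 to 0.42, Impg2 -0.24 to 0.28, Nrl -0.19 to 0.39, Opn1sw -0.38 to 0.52. The others were Pde6a -0.34 to 0.29, Pde6c -0.31 to 0.060, Pde6g -0.23 to 0.38, Pde6h -0.097 to 0.56, Prph2 -0.28 to 0.27, Rbp3 -0.16 to 0.38, Rcvrn -0.21 to 0.33, Rdh12 -0.35 to 0.26, Rgs9 -0.17 to 0.20, Rom1 -0.42 to 0.047, Rp1 -0.037 to 0.51, Sag -0.099 to 0.56 and Slc24a1 -0.34 to 0.025. The log2 ratio of summed levels was -0.01 for all 40 genes, 0.07 for rod and -0.02 for cone genes. With 1 library left out it ran from -0.19 to 0.36, -0.13 to 0.50 and -0.21 to 0.42, each highest without wild-type animal 3. Other scaling factors, plain CPM, levels per kb and leaving out the 5 highest genes moved these ratios by less than the spread between animals. The motif shares printed are those of the 250 bases upstream; in the whole window of 300 bases they were 41.9% for TAATCC and 32.3% for TGCTGA, against 8.14% and 21.7% of all genes. Depth limits Cnga3, Cngb3 and Pde6h, whose counts per library were the lowest of the 40.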
